A study of Rattus norvegicus with 70 samples.

Results

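The 10 genes described here are the FOXO transcription factor genes Foxo1, Foxo3 and Foxo4, the ubiquitin ligase genes Trim63 (MuRF1), Fbxo32 (atrogin-1), Fbxo30, Fbxo31 and Fbxo21, and the linked regulators Klf15 and Mstn (myostatin). They were taken by symbol from the 6 deposited tissue tables, each of which held 19441 named genes, and all 10 were present in every table. The rule is the list of symbols and holds no threshold. The list was chosen with earlier results of these data known, so its counts beside those of all genes are a description.

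FOXO factors are forkhead proteins that insulin and growth factor signalling, acting through AKT, keeps out of the nucleus. When that restraint is lifted they drive genes of fasting metabolism, cell cycle arrest, autophagy and, in skeletal muscle, protein breakdown. MuRF1 and atrogin-1 are the best known ligases of muscle wasting. MuRF1 is a RING ligase of the sarcomere, and atrogin-1 is an F-box protein, the part of an SCF (Skp1, cullin, F-box) ligase that picks the substrate. Fbxo30 (MUSA1), Fbxo31 and Fbxo21 (SMART) encode F-box proteins that have also been tied to muscle loss. KLF15 is a zinc finger factor induced by glucocorticoids that raises amino acid breakdown, and myostatin is a secreted TGF-beta family protein that limits muscle growth.

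The tissues came from male rats of the inbred Wistar-Kyoto strain, which breathed either air, labelled Air, or 0.8 ppm ozone, labelled O3, for 4 h. Messenger RNA was sequenced from muscle, liver, lung, adrenal gland, adipose tissue and hypothalamus, and the question was how ozone differed from air within each tissue. There were 6 libraries of each exposure for liver, lung and hypothalamus and 5 of each for adipose tissue. Muscle had 6 air libraries and 5 with ozone, and the adrenal gland 5 with air and 6 with ozone, which makes 68 of the 70 labelled (adrenal air 7 and muscle ozone 17: not analysed here). Neither the age of the rats, nor the muscle or fat depot, nor the time between exposure and dissection is given in the sources used here.

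Libraries held 8854272 to 18848151 recovered reads. No 2 of a group were alike within counting noise (chi-square over degrees of freedom of at least 8.76). Each tissue carried its own marker list far above the others, for example 118342 to 298337 summed CPM (recovered reads of a gene scaled to the library total) of 10 skeletal muscle genes in muscle against at most 16014 elsewhere. All air libraries are numbered below all ozone libraries, so an order of handling that the numbers follow cannot be told apart from ozone. Whether each library came from a separate rat is not stated, so p-values speak of the spread between libraries only. Values below are the deposited normalised values, which are read counts divided by a size factor for each library. A gene is said to have risen or fallen where the Benjamini-Hochberg adjusted p of limma was under 0.05 over all genes tested in that tissue, and fold changes are log2 values of ozone over air ± SE on the log2(value + 1) scale. Dividing recovered reads by the library total instead moved the median fold change of all genes by -0.32 in muscle, -0.14 in adipose tissue and -0.13 in adrenal gland. That scaling took the share of called genes that were higher after ozone from 49.4% to 18.4% in muscle, 53.8% to 37.2% in lung, 49.6% to 29.5% in adrenal gland, 52.8% to 27.4% in adipose tissue and 55.8% to 45.0% in hypothalamus.

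Muscle had the most calls among these genes. Of the 10, 8 rose after ozone and none fell, where 21.6% of all 13043 genes tested rose and 22.1% fell. The median fold change of the 10 was 1.51, against 0.016 over all genes tested. In 6 of them every ozone library lay above every air library, as was so for 12.8% of all genes tested. In bulk tissue, a change in the number of cells of a type and a change in RNA per cell cannot be told apart.

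Foxo1, the member of the family most tied to fasting, rose 7.86-fold in muscle. Its air values ran from 436 to 556 (median 529.8), and the 5 ozone libraries, numbered 13, 15, 16, 23 and 24 and given in that order throughout, held 3907, 5352, 2911, 3717 and 4941. The lowest ozone library thus lay well above the highest air library. The fold change was 2.97 ± 0.15 (limma adjusted p = 3.3e-08), from a mean of 519 ± 46.6 (SD, n = 6) to 4166 ± 981 (SD, n = 5). Foxo3, the FOXO factor best known for switching on atrophy genes in muscle, had air values of 212 to 460.1 (median 306) and ozone values of 743, 773, 756, 1008 and 929.9. These groups did not overlap either, and the fold change was 1.43 ± 0.21 (limma adjusted p = 0.000225). Foxo4 was the smallest riser, at 0.37 ± 0.10 (limma adjusted p = 0.0114). Its air values were 1887 to 2543 (median 2317) and its ozone values 2905, 2780.2, 3011, 3135 and 2891, apart but close. Scaled to total reads, the Foxo4 difference was 0.04 (limma adjusted p = 0.748) and it was no longer called, while Foxo1 stood at 2.65 (limma adjusted p = 5.04e-07) and Foxo3 at 1.10 (limma adjusted p = 0.00104).

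Among the ligases, Trim63 had the largest change in muscle, 4.90-fold higher. Air values ran from 3222 to 5794 (median 4818) and ozone values were 20011, 23039.7, 23641, 18232 and 25548, with a wide gap between the groups. The fold change was 2.29 ± 0.17 (limma adjusted p = 1.63e-06), from 4594 ± 1099 (SD, n = 6) to 22094 ± 2936 (SD, n = 5). Fbxo31, whose product targets cyclin D1 among other proteins, rose 3.24-fold. Its air range was 336 to 608 (median 508) and its ozone values were 1604, 1629, 1775, 1309 and 1739, again with no overlap (fold change 1.70 ± 0.15, limma adjusted p = 6.06e-06). Fbxo32 rose by less than Trim63 and with more spread, 1.34 ± 0.39 (limma adjusted p = 0.0149). Its air libraries split widely, from 1028 to 5011 (median 2593), and its ozone values were 4948, 7066, 4909, 3943 and 8649. The highest air library, air 4 at 5011, exceeded 3 of the 5 ozone libraries, so these groups overlapped. Scaled to total reads, Fbxo32 stood at 1.02 (limma adjusted p = 0.0567) and its call was lost.

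Fbxo30 and Fbxo21 were the 2 members that did not pass the test in muscle. Fbxo30 held 269 to 531 (median 338) in air and 252, 407, 339, 329 and 332 after ozone (fold change -0.09 ± 0.17, limma adjusted p = 0.688). Fbxo21 held 108 to 209 (median 182) and 126, 153, 123, 186 and 158 (fold change -0.13 ± 0.19, limma adjusted p = 0.613). Ozone and air libraries intermingled for both genes.

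Klf15 rose 3.19-fold in muscle. The air libraries ran from 112 to 247 (median 239), with air 7 alone at 112, and the ozone libraries held 763, 455, 829.7, 607 and 721. No ozone library reached down to the air range (fold change 1.67 ± 0.21, limma adjusted p = 8.32e-05). Mstn rose as well, at 1.59 ± 0.34 (limma adjusted p = 0.00277). Its air values were 334 to 939 (median 517) and its ozone values 1310.2, 782, 2214, 1797 and 2665, and ozone 15 fell inside the air range while the other 4 lay above it. All 8 calls in muscle held when any 1 of the 11 libraries was left out.

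**Figure D1:**
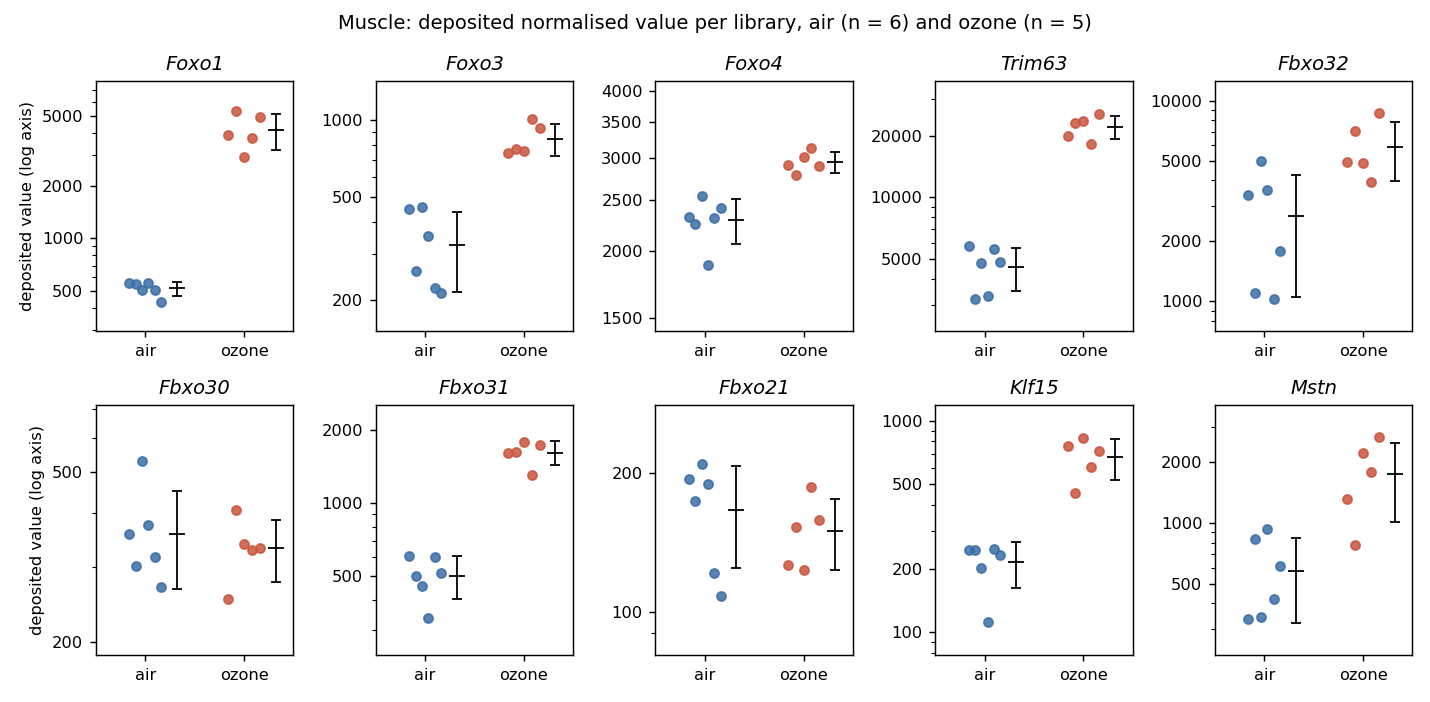
Deposited normalised values of the 10 genes in muscle, 1 point per library on log axes with a separate scale for each gene, air (n = 6) beside ozone (n = 5); black marks are the mean ± SD. Foxo1, Foxo3, Foxo4, Trim63, Fbxo31 and Klf15 do not overlap between the groups, Fbxo32 and Mstn overlap by 1 or more libraries, and Fbxo30 and Fbxo21 intermingle.

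The promoters of 7 of the 10 genes were in the RefSeq table (GRCr8), each from 250 bases before to 50 bases after the annotated start. They are shown for Trim63 and Klf15, the 2 in which any of the motifs searched for was found. Both strands were searched for the forkhead motif GTAAACA, the glucocorticoid receptor half-site AGAACA and the E-box CACGTG. Among all 33469 promoters in the table these occurred in 3.78%, 20.7% and 6.42%. The Trim63 window, chr5:151816986-151817285 on the plus strand, held the forkhead motif and the half-site, both as the reverse complement and next to each other. All but the last base of the half-site lay inside the inverted repeat GAACANNNTGTTC, the palindrome form of a glucocorticoid receptor site, which was searched for after the sequence was seen and occurred in 17 promoters (0.0508%). The Klf15 window, chr4:124522765-124523064 on the plus strand, held 1 E-box. Foxo1, Foxo4, Fbxo30, Fbxo31 and Fbxo21 had none of these letters in their windows, and Foxo3, Fbxo32 and Mstn had no entry. A match is a run of letters and not a measured binding site. Capitals mark the matches.
Trim63: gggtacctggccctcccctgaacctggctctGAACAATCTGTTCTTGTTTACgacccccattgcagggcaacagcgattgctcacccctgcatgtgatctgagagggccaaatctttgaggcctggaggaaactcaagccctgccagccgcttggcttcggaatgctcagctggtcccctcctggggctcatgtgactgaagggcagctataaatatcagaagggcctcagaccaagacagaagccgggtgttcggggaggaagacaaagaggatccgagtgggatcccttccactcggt
Klf15: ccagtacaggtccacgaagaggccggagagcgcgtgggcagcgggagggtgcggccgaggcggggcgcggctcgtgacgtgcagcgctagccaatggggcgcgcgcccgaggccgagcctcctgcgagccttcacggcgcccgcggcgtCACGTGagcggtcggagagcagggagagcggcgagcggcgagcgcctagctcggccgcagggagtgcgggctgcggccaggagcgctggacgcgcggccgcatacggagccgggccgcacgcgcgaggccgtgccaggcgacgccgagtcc

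Fibre type markers moved in the same muscle libraries. Of 10 listed skeletal muscle markers 8 rose and 1, the slow myosin gene Myh7, fell (7 and 2 when scaled to total reads), and their summed level was 118342 to 182606 CPM in air and 202580.0 to 298337 after ozone. Of all 13043 genes tested 21.6% rose and 22.1% fell, and scaled to total reads 1119 rose and 4979 fell. Fast-fibre Myh2 went from 51367 to 95875 CPM in air to 125479 to 190777 after ozone. Myh7 ranged from 6181 to 44175 in air, while ozone 13, 16 and 24 held 275, 519.6 and 256, ozone 15 held 3678 and ozone 23 held 11989.7. All 8 slow-fibre genes examined fell, with fold changes of -4.26 to -2.40 and groups that overlapped. They include Myh6, which is also listed as a cardiac muscle marker and was low, at 9.24 to 31.0 CPM in air. The 6 fast-fibre genes rose. Apart from the listed markers, the slow-fibre and fast-fibre genes were chosen after their values were seen. Endothelial markers fell in 4 of 6 and rose in 1, and their summed level was 284 to 504 CPM in air and 188 to 250.3 after ozone. Ozone 23, whose Myh7 and Tnnt1 lay inside the air range, had Foxo1 at 3717, Trim63 at 18232, Fbxo31 at 1309 and Klf15 at 607, each above every air library. Its Fbxo32, at 3943, was below air 4 at 5011. Its Myh2, at 173302 CPM, was above the air range, so this library did not match air in fibre markers. Ozone 15 had Myh7 and Tnnt1 below every air library, at 3678 and 277 CPM. With the 3 lowest-Myh7 ozone libraries left out, Foxo1 stood at 3.11 (limma adjusted p = 3.24e-05), Trim63 at 2.19 (limma adjusted p = 0.00172), Fbxo31 at 1.56 (limma adjusted p = 0.00428), Foxo3 at 1.51 (limma adjusted p = 0.0183) and Klf15 at 1.34 (limma adjusted p = 0.0217). Foxo4 at 0.37 (limma adjusted p = 0.182), Fbxo32 at 1.24 (limma adjusted p = 0.174) and Mstn at 1.15 (limma adjusted p = 0.114) were then no longer called, with 2 ozone libraries remaining and 1211 genes called in all, against 5702. The part of fibre type in the muscle results was not tested.

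**Figure D2:**
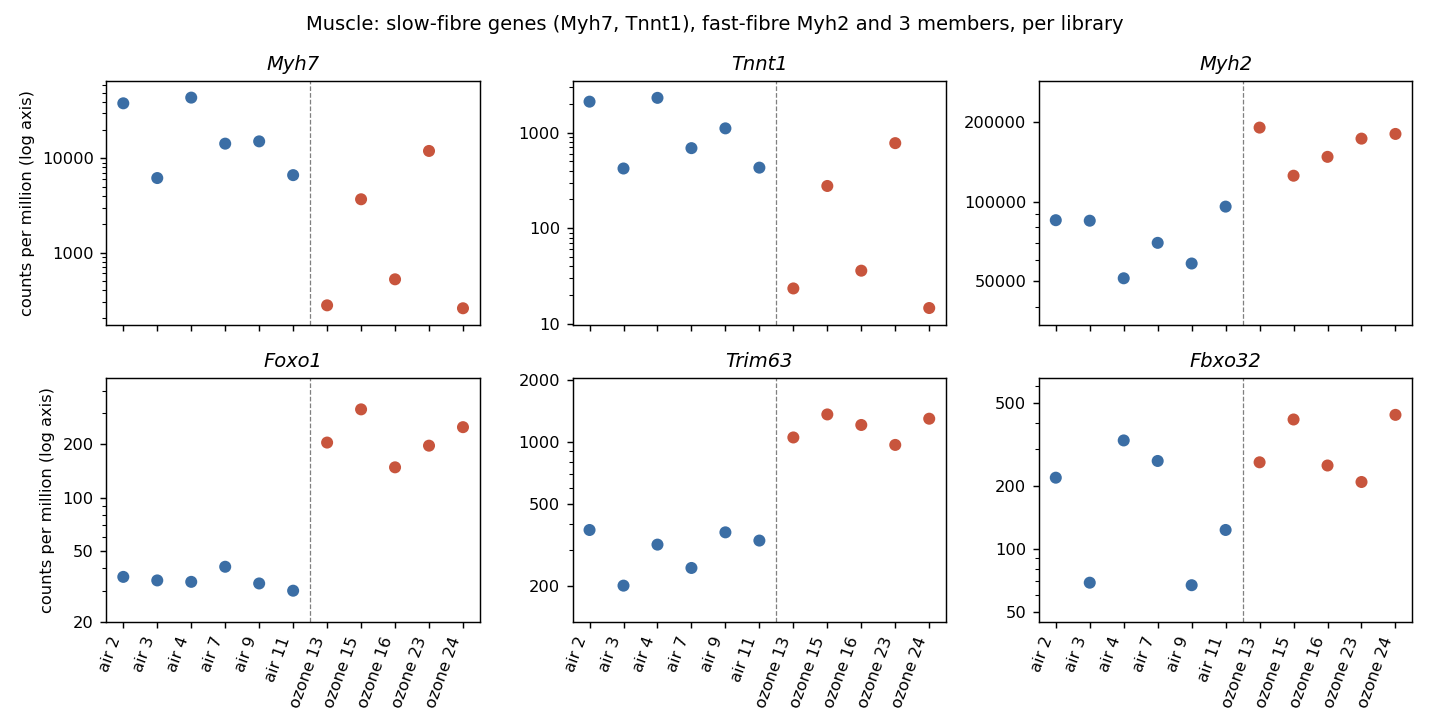
CPM in each muscle library on log axes, air left and ozone right of the dashed line, for the slow-fibre genes Myh7 and Tnnt1, the fast-fibre gene Myh2 and Foxo1, Trim63 and Fbxo32. Ozone 13, 16 and 24 are far below all others for Myh7 and Tnnt1, ozone 23 is within the air range, and all 5 ozone libraries stand above every air library for Foxo1 and Trim63.

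In liver, 3 of the 8 members tested rose and none fell, where 6.74% of all genes tested rose and 4.72% fell. Foxo1, which drives glucose production genes in this organ, rose 3.91-fold. Air libraries held 301 to 558 (median 391) and ozone libraries 742 to 2405 (median 1752), and every ozone library was above every air library. Its fold change was 1.97 ± 0.25 (limma adjusted p = 0.00015). Fbxo31 rose from 344 ± 111 (SD, n = 6) to 915 ± 220.1 (SD, n = 6), with ranges of 214 to 544 (median 312) and 714 to 1320.4 (median 844). Its groups did not overlap either (fold change 1.43 ± 0.20, limma adjusted p = 0.000299), so 2 of the 8 tested members were apart, as were 4.77% of all genes tested in that direction. Klf15 went from 163 to 517 (median 318) to 464 to 718 (median 609.8), with overlap between the groups. Its call (0.99 ± 0.26, limma adjusted p = 0.0219) was lost without air 7, air 10 or ozone 16, at adjusted p of 0.0544, 0.0523 and 0.0506. The other 5 tested members lay between -0.29 (Foxo4, limma adjusted p = 0.215) and 0.39 (Fbxo21, limma adjusted p = 0.0779). DESeq2 called Fbxo21 (0.38, adjusted p = 0.0361), and so did limma with array weights (0.43, adjusted p = 0.0222). Trim63 and Mstn were too low to test, with at most 3 and 1 reads in any liver library, and Mstn had 0 reads in all 6 ozone libraries, which allows a level of up to 0.0345 CPM.

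In lung, the organ that meets the gas first, Klf15 and Trim63 rose among the 9 members tested and none fell, against 9.51% of all genes tested that rose and 8.18% that fell. Klf15 ran from 53.4 to 267 (median 139) in air and from 292 to 429 (median 315) after ozone. Its air libraries spread over a wide range, yet the highest was below the lowest ozone library (fold change 1.44 ± 0.33, limma adjusted p = 0.0082). Trim63 was low but measured tightly, at 82.6 to 137 (median 116) in air and 148 to 191 (median 173) after ozone. These groups were apart as well (fold change 0.62 ± 0.13, limma adjusted p = 0.00348), as 5.54% of all genes tested were in that direction. All 9 tested members had a fold change above 0, from 0.04 for Foxo4 upward. Foxo3 had the largest value not called, 0.75 ± 0.31 (limma adjusted p = 0.122). Summed cardiac muscle markers were 472 and 719 CPM in air 1 and air 2 and 13.8 to 133 in the other lung libraries. With those 2 left out, Klf15 stood at 1.21 (limma adjusted p = 0.0236) and Trim63 at 0.54 (limma adjusted p = 0.0132). Leukocyte markers fell in 5 of 9 and none rose, among them Ptprc (CD45), at 129.5 to 193 CPM in air and 77.8 to 112 after ozone, although the summed level of the list was 9762 to 15876 and 13628 to 17359. Summed adipocyte markers were 839 CPM in air 10 and 53.4 to 278 in the other lung libraries, and both calls held when any 1 of the 12 lung libraries was left out. The part of leukocytes in these results was not tested. Mstn had at most 2 reads in a lung library and was not tested.

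In adrenal gland, 9 members were tested and Fbxo32 rose and none fell, with Trim63 also past the threshold from values near the detection limit, where 9.23% of all genes tested rose and 9.38% fell. Fbxo32 had air values of 135, 106, 224, 119.8 and 119 and ozone values of 205 to 798 (median 411). Air 8, the highest air library, exceeded ozone 15, the lowest ozone library, and the other 5 ozone libraries lay above all air libraries. The fold change was 1.61 ± 0.30 (limma adjusted p = 0.00265), or 3.05-fold. Trim63 was close to the detection limit, with air values of 2.42, 1.12, 9.57, 11.2 and 0 and ozone values of 6.12 to 26.4 (median 19.4), and the groups overlapped. It reached the minimum mean of 10 only through the ozone group, with means of 4.86 and 18.2, so its call is given as a description. Its fold change of 2.17 ± 0.63 (limma adjusted p = 0.0307) was not called by edgeR (adjusted p = 0.0574), and leaving out 1 library lost the limma call in 7 of 11 fits. Foxo1 did not pass here, at 0.19 ± 0.20 (limma adjusted p = 0.579), with air values of 398, 359, 332, 648 and 279. Klf15 did not either, at -0.13 ± 0.29 (limma adjusted p = 0.817).

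Air 8 and ozone 16 stood apart from the other adrenal libraries. Their summed cortex and medulla markers were 17166 and 21924 CPM, against 31193 to 42221 in the rest, and the highest Fbxo32 value of each group was theirs, 224 and 798. With both left out, Fbxo32 stood at 1.60 (limma adjusted p = 0.000245), and Fbxo30 at 0.42 (limma adjusted p = 0.0212) and Fbxo21 at 0.51 (limma adjusted p = 0.0257) also passed. In that fit 4220 of all 13966 genes tested were called, against 2609 of 14026 with all libraries. Trim63 stood at 2.55, again given as a description only. Mstn was not tested, with 0 reads in the 5 air libraries, which allows up to 0.0536 CPM, and at most 4 in an ozone library.

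In adipose tissue Foxo1 alone rose among 10 members tested, and none fell, where 3.87% of all genes tested rose and 3.45% fell. Its air values were 1888, 1216, 1767, 1769 and 2306 and its ozone values 3544, 4987, 4156, 3496 and 5017. The groups were apart, as 4.38% of all genes tested were in that direction, with a fold change of 1.26 ± 0.18 (limma adjusted p = 0.00162). Foxo3 did not pass, with 623, 484, 362, 789 and 873 in air and 955, 1241, 719.6, 1168 and 1568 after ozone (fold change 0.87 ± 0.26, limma adjusted p = 0.0617), although DESeq2 called it (adjusted p = 0.0181). Klf15 differed little, at 0.24 ± 0.24 (limma adjusted p = 0.61), and its air libraries ran from 505 to 1432. Trim63 held 1203, 181, 44.2, 50.4 and 398 in air and 1012, 694, 90.2, 404 and 416 after ozone, too scattered for a call (1.15 ± 1.00, limma adjusted p = 0.556). The highest Trim63 values, 1203 and 1012, and the highest Mstn values, 110.2 and 25.3, were in air 2 and ozone 16. Summed skeletal muscle markers were 16014 CPM in air 2, 2761 in air 5, 2129.9 in ozone 16 and 64.3 to 1006 in the other 7, and their part in these values was not tested. With air 2, air 5 and ozone 16 left out, Foxo1 stood at 1.18 (limma adjusted p = 0.0265).

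In hypothalamus none of the 10 members was called by limma, where 0.789% of all genes tested rose and 0.624% fell, and at an unadjusted p under 0.05 there were 3, Klf15, Fbxo32 and Fbxo31, where 14.8% of all genes passed that level. Klf15 had the largest value of these, 0.69 ± 0.20 (limma adjusted p = 0.128), from 64.9 to 137 (median 101) in air to 121 to 222 (median 165) after ozone. DESeq2 placed it just under the threshold (adjusted p = 0.0467), and edgeR did not call it. Fbxo32 stood at -0.48 ± 0.18 (limma adjusted p = 0.246) and Foxo1 at -0.05 ± 0.26 (limma adjusted p = 0.948).

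**Figure D3:**
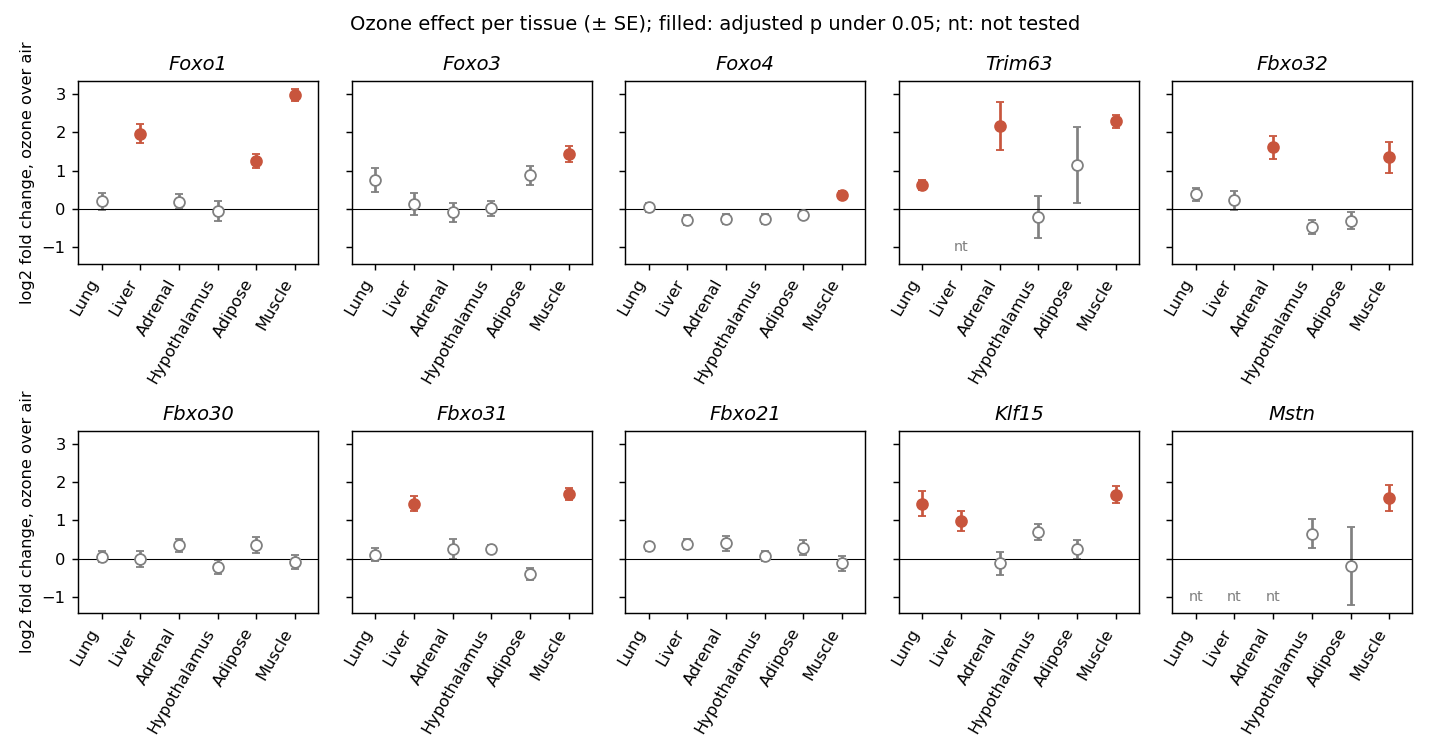
Log2 fold change of ozone over air ± SE for each gene in each tissue; filled points have a limma adjusted p under 0.05, open points do not, and nt marks a gene too low to test. Filled points number 8 in muscle, 3 in liver, 2 each in lung and adrenal gland, 1 in adipose tissue and 0 in hypothalamus, and all lie above 0; adrenal Trim63 reached the minimum mean through its ozone libraries alone.

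Whether the ozone effect differed between tissues was tested in a joint fit of all 6 tissues, for the 8 members with a mean of at least 10 everywhere (Trim63 and Mstn were below it in some tissues). The adjusted p of the F test for an equal ozone effect everywhere fell under the threshold for 6 of the 8, as it did for 41.9% of 11111 genes. Adjusted p was 8.81e-12 for Foxo1, 1.57e-09 for Fbxo31, 3.6e-05 for Fbxo32, 0.00127 for Klf15, 0.00335 for Foxo4 and 0.00594 for Foxo3 in limma. Fbxo30 and Fbxo21 did not pass, at 0.3 and 0.272. Set against the mean effect of the other 5 tissues, the muscle effect was higher for the same 6 genes. Of all 11111 genes 35.5% differed in muscle, 1849 of them higher and 2100 lower. The excess in muscle was 2.26 ± 0.26 log2 units for Foxo1 (limma adjusted p = 7.75e-10), 1.37 ± 0.21 for Fbxo31 and 1.06 ± 0.32 for Fbxo32. With the 3 lowest-Myh7 ozone libraries left out of the joint fit, the F test still passed for all 6, but the muscle excess was no longer called for Fbxo32 (0.96, limma adjusted p = 0.119) or Klf15 (0.69, limma adjusted p = 0.28). Scaled to total reads, Foxo4 lost both the F test (adjusted p = 0.113) and the muscle difference (adjusted p = 0.0542). The Fbxo21 effect was then called lower in muscle than elsewhere (-0.66, limma adjusted p = 0.00192), as it was without adrenal air 8 and ozone 16 (-0.44, limma adjusted p = 0.0389), against -0.42 ± 0.18 with all libraries (limma adjusted p = 0.0668).

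Outside muscle, differences from the mean of the other 5 tissues were called for single members. The shares of genes given beside them count both directions. Higher and lower were 631 and 378 genes in liver, 892 and 1203 in adrenal gland and 241 and 298 in adipose tissue. In hypothalamus they were 61 and 137, and in lung 309 and 101. In liver, where 9.08% of genes differed from the mean of the rest, the effect was higher for Foxo1, by 1.05 ± 0.25, and for Fbxo31, by 1.06 ± 0.20 (limma adjusted p = 0.00261 and 8.76e-05). In adrenal gland, where 18.9% of genes differed, Fbxo32 stood 1.38 ± 0.32 above the other tissues, while the Foxo1 effect differed by -1.08 ± 0.26 and the Klf15 effect by -1.13 ± 0.32. For Fbxo31 the adipose effect was below the rest (difference -1.15 ± 0.22, limma adjusted p = 0.000185), where 4.85% of genes differed. For Foxo1 the hypothalamus and lung effects also lay below the mean of the rest, at -1.37 ± 0.25 and -1.07 ± 0.25, where 1.78% of genes differed in hypothalamus and 3.69% in lung. The Foxo1 effects in lung, adrenal gland and hypothalamus were close to each other, at 0.19, 0.19 and -0.05. Each was set against a mean that held muscle (2.97), liver (1.97) and adipose tissue (1.26). For Fbxo32 the hypothalamus effect lay below the mean of the rest, at -1.13 ± 0.31. The last of these calls, Fbxo32 in hypothalamus (limma adjusted p = 0.0364), was lost when scaled to total reads (adjusted p = 0.0723) and in edgeR (adjusted p = 0.0507).

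Levels across tissues are given for air libraries in CPM of recovered reads, as a description, since each table was normalised separately. Trim63 was highest in muscle, at 305 ± 68.7 (SD) in muscle, then 24.3 ± 30.6 in adipose tissue and 9.29 ± 1.41 in lung, with 1.18 ± 0.723 in hypothalamus, 0.448 ± 0.472 in adrenal gland and 0.0825 ± 0.104 in liver. The muscle range was clear of all others, while adipose tissue and lung overlapped, as did hypothalamus with adrenal gland and adrenal gland with liver. Fbxo32 was also highest in muscle, at 179 ± 109, and apart from lung at 31.8 ± 7.07, but it was measured everywhere. Lung, adipose tissue (29.6 ± 10.8), hypothalamus (23.3 ± 5.85) and adrenal gland (13.1 ± 3.31) each overlapped the next, and liver was lowest at 6.65 ± 2.44. Mstn was at 39.2 ± 19.0 in muscle, 2.19 ± 1.03 in hypothalamus and 1.78 ± 2.94 in adipose tissue, the last 2 overlapping, with at most 2 reads in any lung library, 1 in any liver library and 0 in the adrenal air libraries. The adipose levels of Trim63 and Mstn include air 2, at 76.5 and 7.00 CPM. That library held 16014 CPM of skeletal muscle markers, and their part in these levels was not tested.

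The FOXO genes were less restricted. Foxo4 stepped down from muscle (152 ± 12.4) to adipose tissue (85.9 ± 8.50) and lung (55.9 ± 7.79), then adrenal gland (28.0 ± 4.36) with hypothalamus (26.0 ± 3.99), which overlapped, and liver (13.4 ± 2.43). Foxo1 was highest in adipose tissue (119 ± 24.5) and lung (73.1 ± 17.1), and then near one level in adrenal gland (38.4 ± 14.5), muscle (34.6 ± 3.65), hypothalamus (30.6 ± 9.45) and liver (28.8 ± 6.76), with neighbours overlapping throughout. After ozone, muscle Foxo1 stood at 223 ± 62.9, beside 256 ± 38.2 in adipose tissue and 115 ± 43.6 in liver. Foxo3 ran from 73.9 ± 34.6 in lung through 41.9 ± 14.3 in adipose tissue, 32.8 ± 8.47 in hypothalamus, 31.4 ± 10.5 in adrenal gland and 21.8 ± 7.54 in muscle to 20.9 ± 7.04 in liver, each neighbour overlapping.

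Of the remaining genes, Klf15 was highest in adipose tissue, with 56.8 ± 25.2 in adipose tissue, 22.7 ± 9.21 in liver, 14.1 ± 3.05 in muscle, 11.8 ± 6.36 in lung, 8.74 ± 2.61 in hypothalamus and 8.22 ± 2.81 in adrenal gland, and all neighbours overlapped. For Fbxo21 the brain tissue led, with 71.9 ± 7.21 in hypothalamus, 36.1 ± 8.39 in adipose tissue, 35.0 ± 8.94 in adrenal gland, 21.2 ± 3.21 in liver, 17.7 ± 1.29 in lung and 11.1 ± 2.87 in muscle. Hypothalamus stood apart from the next tissue for that gene, adipose tissue overlapped adrenal gland and liver overlapped lung. Fbxo31 levels were 33.3 ± 5.67 in muscle, 27.4 ± 9.70 in adrenal gland, 27.3 ± 3.51 in hypothalamus, 23.7 ± 6.88 in liver, 13.8 ± 1.82 in adipose tissue and 10.3 ± 2.82 in lung. Neighbours in that order overlapped except liver and adipose tissue, which were apart. Fbxo30 levels were 36.1 ± 7.54 in lung, 33.5 ± 7.55 in hypothalamus, 33.3 ± 7.04 in adrenal gland, 23.9 ± 6.40 in muscle, 19.6 ± 4.50 in adipose tissue and 8.92 ± 2.71 in liver, where only liver stood apart from its neighbour.

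**Figure D4:**
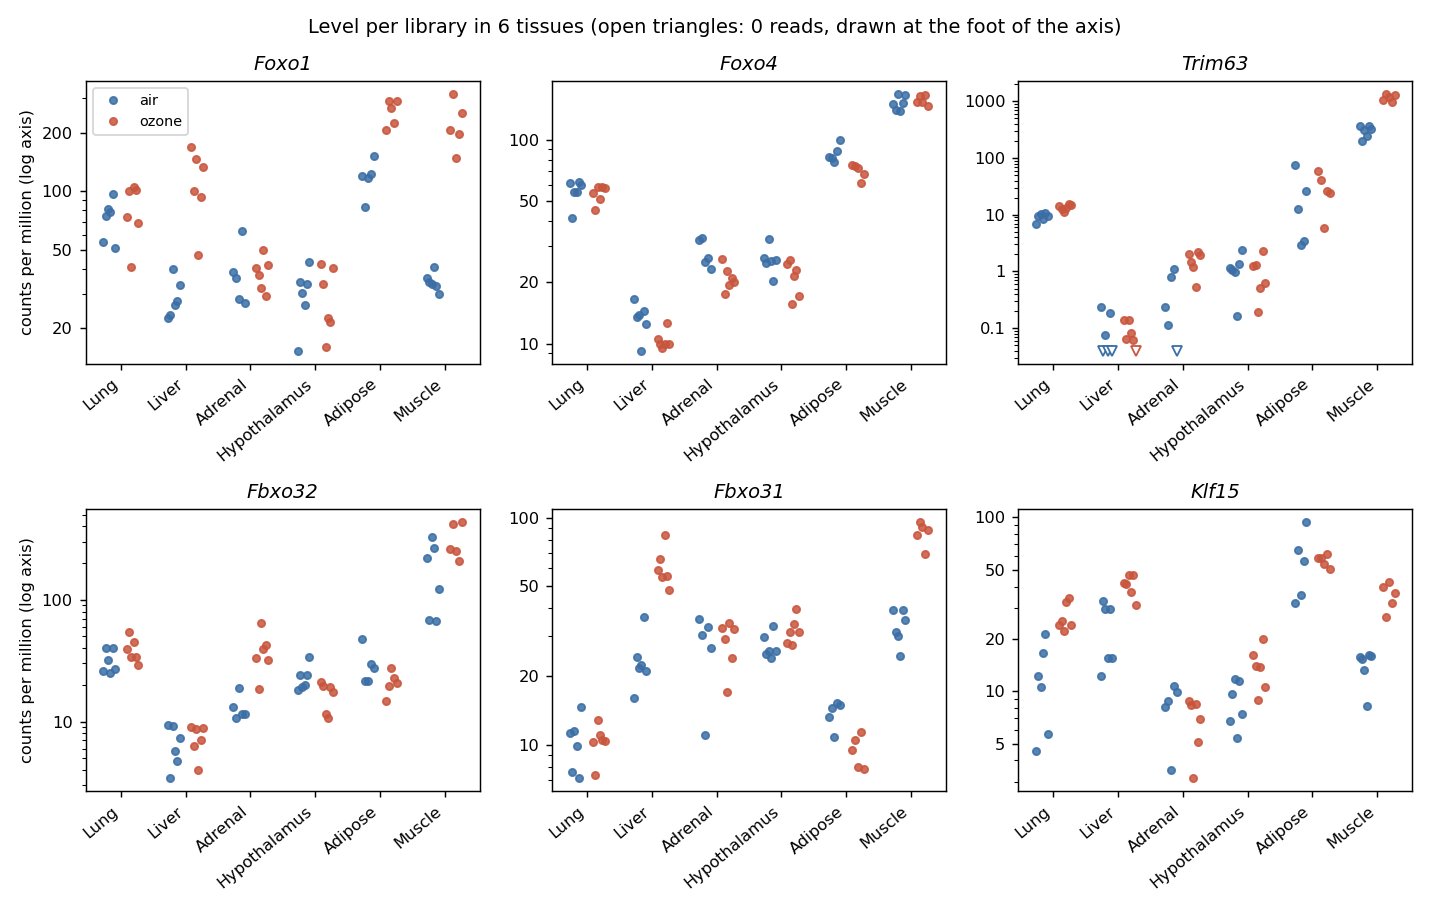
CPM of recovered reads per library in the 6 tissues, air beside ozone, on log axes that differ between genes; open triangles mark libraries with 0 reads. Trim63 spans from liver at or near 0 to 305 ± 68.7 (SD) in air muscle, while Foxo1 shows its gaps between air and ozone in liver, adipose tissue and muscle.

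The genes whose fold changes over the 6 tissues were most like those of a member were found among 11111 genes by the root mean square difference in log2 units, with no test. For Foxo1 they were Slc25a25, Klhl25 and Ppp1r13b, at 0.474 to 0.644. Slc25a25, a mitochondrial carrier, was nearest, with 2.18 in muscle, 1.24 in liver and 1.35 in adipose tissue. For Fbxo31 they were Exoc8, Smox and Azin2 (0.254 to 0.307), the last pair being genes of polyamine metabolism. For Klf15 they were Chst3, Fibin and Galnt10 (0.274 to 0.427), for Fbxo32 Kif5a, Olr1 and Gramd1b (0.322 to 0.355) and for Foxo3 Preb, Mpp3 and Zfp36 (0.184 to 0.226). For the members whose fold changes stayed small, they were Rexo4, LOC317456 and RGD1561157 for Foxo4 (0.0785 to 0.089), Crebbp, Zcchc7 and Ireb2 for Fbxo30 (0.0515 to 0.0742) and LOC103689931, Ofd1 and Erf for Fbxo21 (0.0551 to 0.0665).

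In muscle the wider pathway was mixed above the FOXO factors. Of 30 upstream regulators 9 rose and 8 fell, where 21.6% of all genes tested rose and 22.1% fell. The median was -0.07 against 0.016 over all genes, and scaled to total reads the counts were 2 up and 14 down. Under that scaling 1119 of all 13043 genes tested rose and 4979 fell. Mapk14, the stress kinase p38 alpha, rose by 1.24 ± 0.11 (limma adjusted p = 5.02e-06), and Pik3r1, the regulatory subunit of PI3-kinase, rose by 1.28 ± 0.18. Stk3, the MST2 kinase, was lower at -1.02 ± 0.18, as was Prkaa1, the AMPK alpha1 subunit, at -0.87 ± 0.17. Of 24 tested FOXO targets outside the ligases 9 rose and 5 fell (median 0.23, or -0.09 scaled to total reads). Sesn1, a stress-induced inhibitor of mTORC1, rose by 1.59 ± 0.18, Eif4ebp1, the brake on cap-dependent translation, by 1.74 ± 0.20 and the repressor Bcl6 by 1.85 ± 0.21. Trib1, a pseudokinase gene, went the other way at -1.81 ± 0.20 (limma adjusted p = 3.15e-05).

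Downstream of the ligases, 13 of 32 proteasome subunit genes rose and none fell (median 0.40), and scaled to total reads the counts were 5 up and 2 down (median 0.07). Among all genes tested in muscle 21.6% rose and 22.1% fell, and scaled to total reads 1119 of 13043 rose and 4979 fell. Psmb6, a catalytic beta subunit, rose by 1.63 ± 0.26 (limma adjusted p = 0.000363), and Psmd13, Psmc5 and Psmd2 of the regulatory particle rose by 0.70 ± 0.13, 0.90 ± 0.18 and 0.57 ± 0.12. Of 13 genes of the SCF core and its neddylation 8 rose and 2 fell (median 0.52; 2 up and 3 down scaled to total reads). The neddylation enzymes Ube2m and Ube2f rose by 1.04 ± 0.18 and 0.68 ± 0.13, while Cand1, the cullin exchange factor, and Uba3, the NEDD8-activating subunit, were lower at -0.56 ± 0.11 and -0.66 ± 0.16. Of 28 other ligases and partners 7 rose, a share near that of all genes, and 2 fell (median 0.21). Scaled to total reads these were 3 up and 7 down (median -0.11). Trim54 (MuRF3) rose by 1.53 ± 0.17 and the deubiquitinase gene Usp19 by 0.92 ± 0.11. Of 24 autophagy genes 8 rose and 3 fell (median 0.18), against 3 up and 7 down (median -0.14) scaled to total reads. Map1lc3b and Gabarapl1, which encode proteins of the autophagosome membrane, rose by 1.43 ± 0.15 and 1.74 ± 0.19, and Lamp2 of the lysosome membrane was lower at -0.86 ± 0.14. With the 3 lowest-Myh7 ozone libraries left out, the counts that rose and fell were 1 and 0 for the proteasome, 0 and 0 for the SCF core, 3 and 0 for other ligases, 2 and 1 for autophagy, 2 and 3 for upstream regulators and 6 and 4 for FOXO targets. In that fit 439 of all 13119 genes tested rose and 772 fell.

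Around myostatin, 4 of 18 tested genes rose and 6 fell in muscle (median -0.01), and scaled to total reads the counts were 2 up and 6 down. Among all genes tested in muscle 21.6% rose and 22.1% fell, so the share that rose was near that of all genes. Under total-read scaling 1119 of all 13043 genes tested rose and 4979 fell. The type I receptor gene Acvr1b rose by 1.33 ± 0.14 (limma adjusted p = 2.32e-05) and Furin, which encodes a protease that processes promyostatin, by 0.50 ± 0.10. Lower were Inhba, the activin A subunit, at -2.76 ± 0.44 and Fstl1 at -1.30 ± 0.23. In the BMP branch, which opposes myostatin signalling, 1 of 13 rose and 3 fell, the latter a share near that of all genes (median -0.20). The receptor gene Acvr1 was among the lower genes, at -0.99 ± 0.14. Of 15 tested genes of amino acid catabolism linked to KLF15, 7 rose and 3 fell (median 0.47; 4 up and 4 down scaled to total reads). Gpt2, an alanine transaminase, rose by 1.73 ± 0.21, Glul, glutamine synthetase, by 1.53 ± 0.23 and Slc25a44, the mitochondrial carrier of branched-chain amino acids, by 1.16 ± 0.21. Of 9 glucocorticoid response genes 8 rose and 1, the receptor gene Nr3c1, fell (median 1.73; 6 up and 1 down scaled to total reads). Ddit4, an mTORC1 inhibitor, rose by 4.12 ± 0.30 and Zbtb16 by 2.20 ± 0.17. With the 3 lowest-Myh7 ozone libraries left out, the counts that rose and fell were 1 and 2 for the myostatin pathway, 0 and 2 for the BMP branch, 3 and 0 for amino acid catabolism and 5 and 0 for the glucocorticoid genes. In that fit 439 of all 13119 genes tested rose and 772 fell.

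**Figure D5:**
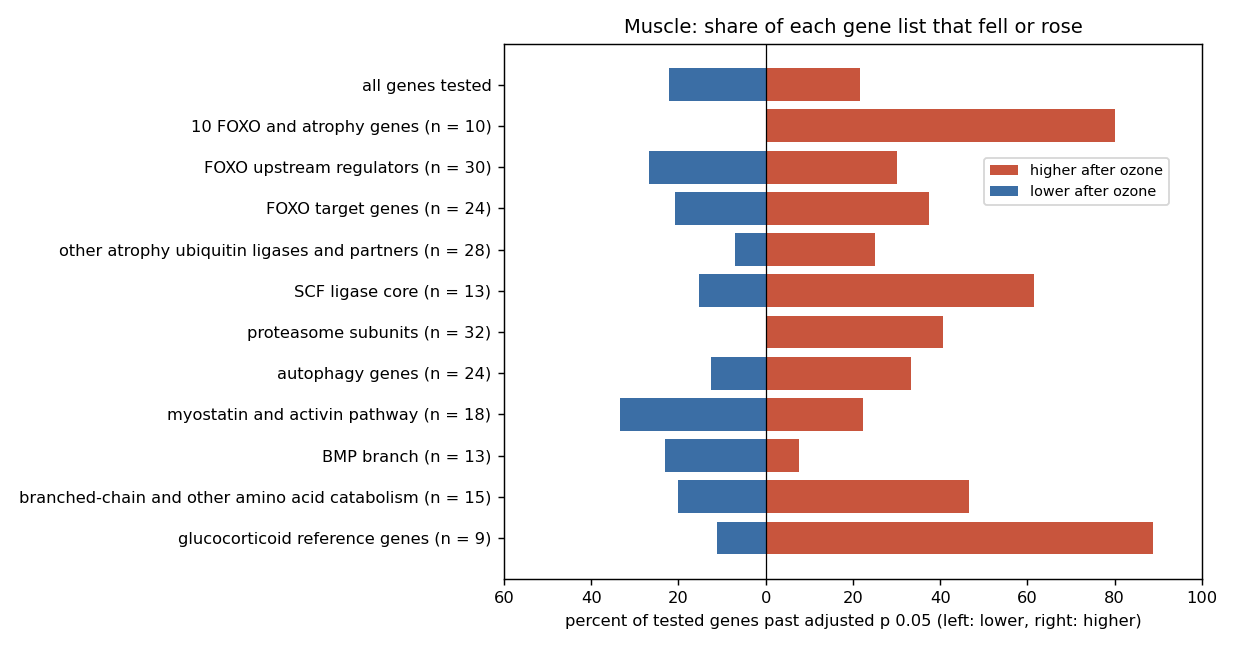
Percent of the tested genes of each list that rose (right) or fell (left) in muscle at a limma adjusted p under 0.05, with all 13043 genes tested in the top bar and the number tested in brackets. The 10 FOXO and atrophy genes rose in 8 of 10 and the glucocorticoid genes in 8 of 9, where 21.6% of all genes rose and 22.1% fell. The share of the myostatin pathway that rose and that of the BMP branch that fell were near those of all genes.

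In the other tissues, FOXO targets outside the ligases rose in 11 of 25 in lung, where none fell (median 0.38), and in 7 of 26 in liver, where 1 fell (median 0.26). Of 25 in adrenal gland 5 rose and 2 fell (median 0.01), and of 24 in adipose tissue 2 rose and 2 fell (median 0.09). Over all genes tested, 9.51% rose and 8.18% fell in lung and 6.74% and 4.72% in liver. The shares were 9.23% and 9.38% in adrenal gland and 3.87% and 3.45% in adipose tissue. The liver and adrenal counts that fell were near those of all genes. Cdkn1a, the p21 cell cycle inhibitor, led in lung and liver, at 2.21 ± 0.11 (limma adjusted p = 7.75e-08) and 3.79 ± 0.21 (limma adjusted p = 1.35e-07). In hypothalamus Cdkn1a (2.37 ± 0.21), the lipase gene Pnpla2 (1.40 ± 0.14) and Sesn1 (0.53 ± 0.09) rose, 3 of 25, and none fell. Of all genes tested in hypothalamus 0.789% rose and 0.624% fell. In liver Igfbp1, a secreted binder of insulin-like growth factors and a classical FOXO1 target, rose by 1.61 ± 0.22, and the upstream coactivator gene Ppargc1a by 2.88 ± 0.29. Of the upstream regulators 5 of 29 rose in liver, where 6.74% of all genes rose, and none fell. Of 30 in lung 2 rose and 2 fell, and in adrenal gland 2 rose and 1 fell. Of 30 in hypothalamus 1 rose, where 0.789% of all genes did. The lung and adrenal counts of these regulators were near or below the shares of all genes, of which 9.51% and 9.23% rose and 8.18% and 9.38% fell. In adipose tissue 1 of these 30 rose and 3 fell (median 0.00125), where 3.87% of all genes rose and 3.45% fell. The adipose count that rose was near that of all genes. Sgk1, a kinase that phosphorylates FOXO factors, rose by 1.03 ± 0.20, while the insulin receptor substrate genes Irs1 and Irs2 and the PI3-kinase catalytic subunit gene Pik3cb fell by 1.54, 1.00 and 1.32 on the log2 scale (limma adjusted p = 0.00285, 0.00498 and 0.00701). Proteasome genes rose in 5 of 32 in lung, 4 of 32 in adrenal gland and 1 of 32 in each of hypothalamus and adipose tissue, with none in liver and no fall in any of these. Over all genes tested the shares that rose were 9.51%, 9.23%, 0.789% and 3.87%, so the adrenal and adipose counts were near those of all genes. Scaled to total reads, the limma calls numbered 2, 0, 0 and 1. Of all genes tested, 2704 of 14828, 2870 of 14026, 200 of 15217 and 1301 of 14252 were then called in these tissues. Without adrenal air 8 and ozone 16, 10 of 32 rose in adrenal gland. Over all genes 2113 of 13966 then rose, against 1294 of 14026 with all adrenal libraries. Glucocorticoid genes rose in 7 of 9 in lung, 4 of 9 in liver, 5 of 9 in adipose tissue, 3 of 9 in hypothalamus and 1 of 9 in adrenal gland, with 1 fall each in liver and adipose tissue. All genes tested rose in the shares given above for each tissue, and the adrenal count was near its share of 9.23%. Without adipose air 2, air 5 and ozone 16, none of the 9 was called by limma in adipose tissue, where the median was then 0.76 instead of 1.00 and 142 genes were called in all, against 1043.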

How the data were processed

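The authors deposited 1 table per tissue of a normalised signal, gene counts divided by a size factor for each library; Partek, DESeq2 and the rn6 build appear in the submitters' processing notes. Aligner, counter, strand and annotation: not given in the sources used here. Whole reads were recovered for 100% of values (tolerance 0.01). Of 19465 entries, 24 named by dates were left out. Limma 3.58.1 (R 4.3.3; trend, robust) was run on log2(value + 1) for genes averaging 10 or more, and the effect of tissue in a joint fit of 11111 genes. The fit was also run on simulated counts with a simpler spread than these data, which checks the code and not error rates here. Alternatives used edgeR 4.0.16 and DESeq2 1.42.0 on recovered reads. The log2(value + 1) scale understates changes of low genes. Levels across tissues are CPM of recovered reads. The members and gene lists were chosen with earlier results of these data known. The lists share some genes, so their counts are not separate. Irs2 and Insr are among both the upstream regulators and the FOXO targets. Sgk1 is listed as an upstream regulator and a glucocorticoid gene, and Mdm2 as an upstream regulator and among the other ligases. Named are all members and, per list and tissue, up to 4 called genes of lowest adjusted p, plus the 3 most similar genes per member; a gene that this rule names is not reported here. Overlapping or antisense genes may share reads.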

Additional observations from a re-analysis of the deposited data

Results flagged for a closer look

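Outliers were looked for in 112 groups of 5 or 6 libraries, of which chance marks about 1 in 20, and 5 were found. Each had 1 library far from the others of its group. Foxo4 in liver ozone 19 was 176, against 147 to 157 in the other 5. Fbxo31 in adrenal air 8 was 132, against 278 to 367, and Klf15 in the same library was 41.9, against 83.9 to 111. This library also had the lowest summed adrenal markers of its tissue, and the part of that in these values was not tested. Fbxo31 in adipose air 6 was 164, against 208 to 227. Klf15 in muscle air 7 was 112, against 202 to 247, and leaving that library out kept the muscle call.

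The ozone effect differed between tissues for 6 members by the limma F test, with adjusted p = 8.81e-12 for Foxo1, 1.57e-09 for Fbxo31, 3.6e-05 for Fbxo32, 0.00127 for Klf15, 0.00335 for Foxo4 and 0.00594 for Foxo3. Foxo1 ran from -0.05 in hypothalamus to 2.97 in muscle, and Fbxo32 from -0.48 in hypothalamus to 1.61 in adrenal gland.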

How the results depend on the processing

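Pseudocounts of 0.5 and 5, no filter or a mean of at least 50, TMM scaling, plain limma moderation, array weights, edgeR, DESeq2 and leaving out 1 library at a time were tried. Each of the 8 muscle calls held in all of these. Total-read scaling and the sets of libraries left out together were chosen after seeing the data; these ended the Foxo4 and Fbxo32 calls, and the left-out set also that of Mstn. EdgeR called 5651 genes in muscle, 2680.0 in lung, 2636 in adrenal gland, 1423 in liver, 1033 in adipose tissue and 203 in hypothalamus. Values that changed sign were uncalled in both fits. The cause of the changes below was not tested.

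Array weights gave 3941 called genes in lung, 2302 in liver, 4822 in adrenal gland and 723 in hypothalamus, 7534 by the F test, and tissue differences of 1978 (lung), 1620 (liver), 3730 (adrenal gland), 1221 (hypothalamus) and 966 (adipose tissue). Members called were then 5 in adrenal gland, where Foxo4 was lower (-0.36, adjusted p = 0.0441) and the other 4 higher, 1 in hypothalamus and 2 in adipose tissue, and Fbxo30 and Fbxo21 passed the F test (adjusted p = 0.0202 and 0.0423). Signs changed under array weights for Fbxo30 in lung (-0.0296) and liver (0.135, difference from other tissues 0.0806), for Foxo1 (0.0204), Trim63 (0.184) and Fbxo21 (-0.0109) in hypothalamus, and for Mstn in adipose tissue (0.349). DESeq2 called 551 genes and 1 member in hypothalamus, and 1616 genes and 2 members in adipose tissue. In adrenal gland 1 member was called with edgeR, and 1 with a mean of at least 50, where Trim63 was not tested. Total-read scaling changed the sign of Foxo4 (-0.0314) and Fbxo30 (-0.0165) in lung and of Foxo3 in hypothalamus (-0.0118), and moved Fbxo21 past the F test (adjusted p = 0.0264).

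Leaving out lung air 1 and 2 changed the sign of Foxo4 (-0.0347) and Fbxo30 (-0.0167) there and left 228 genes whose lung effect differed from the other tissues. Leaving out adrenal air 8 and ozone 16 gave 4220 genes and 4 members, with Foxo3 at 0.00844. Where Trim63 is among the adrenal members counted here, it reached the minimum mean through its ozone libraries alone. Leaving out adipose air 2, air 5 and ozone 16 gave 142 genes, and 204 that differed from the other tissues. Leaving out muscle ozone 13, 16 and 24 gave 1211 genes and 5 members, 1558 genes that differed from the other tissues, and Fbxo30 and Fbxo21 at 0.0629 and 0.0644; it left fewer samples.

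Leaving out 1 library at a time, members called ran from 1 to 4 in adrenal gland and 1 to 2 in adipose tissue, and genes called from 105 to 286 in hypothalamus and 609 to 1224 in adipose tissue. Fold changes that changed sign ran from -0.0413 to 0.0867 (Foxo4) and -0.0239 to 0.156 (Fbxo30) in lung, -0.0694 to 0.287 (Foxo3) and -0.0993 to 0.0953 (Fbxo30) in liver, -0.257 to 0.0512 (Foxo3), -0.00703 to 0.364 (Fbxo31) and -0.363 to 0.051 (Klf15) in adrenal gland, -0.227 to 0.0702 (Foxo1), -0.113 to 0.0808 (Foxo3), -0.622 to 0.103 (Trim63) and -0.0377 to 0.128 (Fbxo21) in hypothalamus, -1.04 to 0.189 (Mstn, 9 fits) in adipose tissue and -0.17 to 0.0276 (Fbxo30) in muscle.

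Library numbers do not pair air with ozone within a tissue, since none is shared. Across tissues, 90 pairs of equal number had a median correlation of deviations of 0.0103, and 34 exceeded 0.1, so the numbers were not shown to pair. With the replicate block in the joint fit, 4667 genes passed the F test against 4654, with tissue differences of 3953 (muscle), 1016 (liver), 414 (lung), 2100.0 (adrenal gland), 540.0 (adipose tissue) and 199 (hypothalamus), and no member's call changed. Few reads were counted for Trim63 in liver (at most 3 in a library) and adrenal gland (at most 27), and for Mstn in lung, liver and adrenal gland (at most 4).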
